A study of Mus musculus with 6 samples.

Results

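The mitoribosomal protein genes are the nuclear genes with symbols beginning with Mrpl, for proteins of the large subunit of the mitochondrial ribosome, or Mrps, mostly for proteins of the small subunit. They were taken by symbol from the deposited tables, without pseudogene symbols, and numbered 67 of 23021 usable rows, with 42 Mrpl and 25 Mrps symbols. The first 1787 rows hold symbols of chromosome 1 whose values did not match their transcript lengths, and 5 further symbols there (Mrpl30, Mrps9, Mrpl15, Mrpl44 and Mrps14) were left out. The study measured RNA in whole liver of C57BL/6 mice by RNA-seq, 1 library per sample. By genotype label, 3 were wild type and 3 Cdkl3-/-, all male, 10 months old and kept on chow, and the series compares livers with and without Cdkl3, a gene for a protein kinase related to the cyclin-dependent kinases. The allele, any Cre driver and whether each sample came from its own mouse go unstated in the labels, so a p-value here reflects variation among the 6 libraries, which may be technical.

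The libraries differed in more than the labelled genotype. Cdkl3 itself measured 0.124 ± 0.039 FPKM (SD, n = 3) in the wild-type-labelled libraries and 0.139 ± 0.060 FPKM (SD, n = 3) in the knockout-labelled ones, with no detectable difference (limma adjusted p = 0.84). FPKM counts the fragments of a transcript relative to its length and to the depth of the library. Xist lay between 192 and 292 FPKM in the wild-type-labelled libraries and between 0.013 and 0.027 FPKM in the knockout-labelled ones, and the 4 Y-linked genes Ddx3y, Eif2s3y, Uty and Kdm5d were higher in each knockout-labelled library, although all labels say male. Labelled genotype and these sex-linked genes cannot be told apart, and directions below are between libraries as labelled. Knockout replicate 1 also held 5319 FPKM summed over 9 kidney marker genes, nearly all of it Kap, against 0.43 to 5.92 FPKM in the other libraries. The depth was about 20400000 to 48600000 counted reads per library, and mitochondrially encoded transcripts took 70.5% to 73.9% of FPKM in the wild-type-labelled libraries and 63.2% to 70.1% in the knockout-labelled ones. Of 10 hepatocyte markers, Alb lay at 261 to 1613 FPKM over the 6 libraries. Apoa1 was listed at 0.0449, 0 and 0.0791 FPKM in wild type replicates 1 to 3, and Ass1 at 0, 0.0852 and 0.0405 FPKM. In the knockout-labelled libraries 4 of the 10 were called higher and 0 lower, beside 15.4% and 5.09% of all rows fitted. Arg1 lay lower in each of these libraries but was not called (limma adjusted p = 0.14). The list summed to 3462 to 4653 FPKM there against 1952 to 2278 FPKM. Of 4 stellate cell markers, Dcn and Reln were lower in the knockout-labelled libraries (limma adjusted p = 0.013 and 0.0038). Neither Lrat nor Col1a1 was called. Lrat lay below in each knockout-labelled library and Col1a1 above in each, with means of 0.0520 against 0.0260 FPKM for Col1a1. The stellate list summed to 21.3 to 32.2 FPKM there against 76.1 to 130 FPKM, and the endothelial list to 3.59 to 3.65 against 4.44 to 7.39 FPKM through Cdh5 and Kdr, while 4 of 6 endothelial markers had positive differences and Clec4g and Pecam1 lay above in each knockout-labelled library. No defining marker of these 3 lists was at 0 in all libraries. The part of cell makeup in the results below was not tested. In whole liver, fewer cells of a type and less RNA per cell cannot be told apart.

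Mitochondrial ribosomes translate only the proteins encoded in mitochondrial DNA, which are core subunits of the respiratory chain and ATP synthase. Their rRNAs come from mitochondrial DNA, while every ribosomal protein is encoded in the nucleus, made in the cytosol and imported. Part of these proteins descend from bacterial ribosomal proteins and the rest are specific to mitochondria. In liver, a tissue dense in mitochondria, this machinery is needed in every hepatocyte.

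Of the 67 genes, 63 had a value above 0 in at least 1 library and entered a fit of all 20529 such rows, and 28 were higher and 0 lower in the knockout-labelled libraries. In that fit 15.4% of all rows were called higher and 5.09% lower. Median centring of the log values instead gave 18 higher and 13 lower, where 9.58% of all rows were called higher and 56.9% lower. Centring shifts rows at 0 as well, so a gene with few reads can be called lower without a lower level. A gene was called at a Benjamini-Hochberg adjusted p under 0.05 in limma, on log2(FPKM + 1), which understates the change of low genes. At an unadjusted p under 0.05, 0 of the 63 were lower and 42 higher in the same limma fit. The share of all rows at that threshold is not given here, so this count cannot be set against it. The median difference (knockout minus wild type) was 0.39 over the 63 genes on the log2 scale, beside 0.03 over all rows fitted. The sign was positive for 60 genes and negative for 3, Mrpl18, Mrps28 and Mrps5, none of them called. In 45 of the 63 every knockout-labelled library lay above every wild-type-labelled library (27.7% of all rows), and in 1, Mrps5, every one lay below (10.1% of all rows). Only 21 of the 67 genes reached a mean of 1 FPKM over the 6 libraries.

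The counts moved with the scaling and with single libraries. With each library scaled to the same total outside the mitochondrially encoded rows, 18 of 63 genes were higher and 0 lower, where 9.39% of all rows were higher. A fit after a trend with GC content and exon length was subtracted from every library (the trend removal) left 11 higher and 1 lower. It called 8.82% of all rows higher. The trend was estimated on rows with a mean of at least 1 FPKM. Rows with a mean log2(FPKM + 1) under 1 had only part of it subtracted, so low genes were corrected only in part. Without wild type replicate 2 the number was 11 of 63 (6.38% of all rows), and without wild type replicate 3 it was 14 (5.89% of all rows). Of the 28 calls, 11 held when any 1 library was left out, and the other 17 were all lost without wild type replicate 2. Without knockout replicate 1, the library with the kidney transcripts, 34 of 62 genes were higher (19.9% of all rows). Mrpl39, Mrpl45, Mrpl47, Mrps15, Mrps23, Mrps27 and Mrps30 were called in each of the 18 alternative settings that tested them, where filters on low values left Mrpl45 and Mrps23 untested in at least 1.

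**Figure D1:**
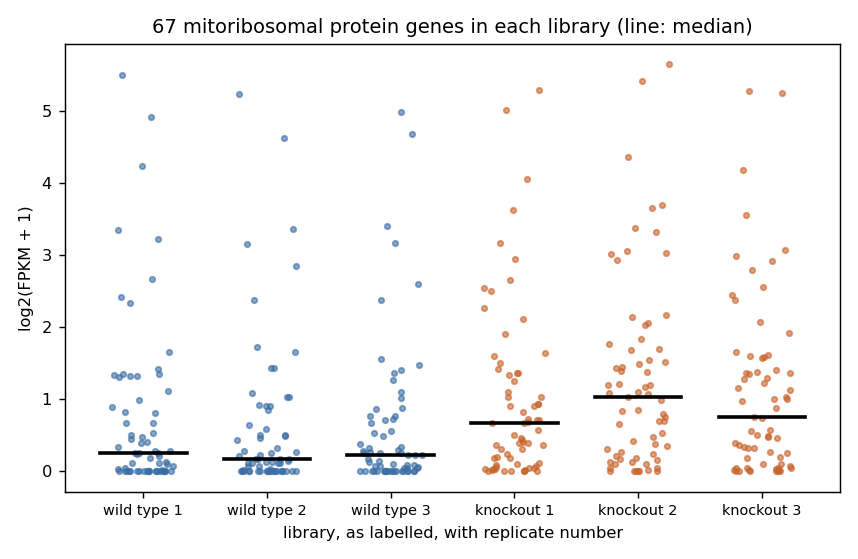
Each point is 1 of the 67 mitoribosomal protein genes in 1 library, as log2(FPKM + 1), and the black line is the median of the library. The median was 0.26, 0.17 and 0.23 in wild type replicates 1 to 3 and 0.66, 1.03 and 0.75 in knockout replicates 1 to 3. Median centring of the libraries lowers the median difference of the genes without changing its sign.

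Summed over the 67 genes, the level was 146, 108 and 103 FPKM in wild type replicates 1 to 3 and 166, 235 and 186 FPKM in knockout replicates 1 to 3. The groups do not overlap on that sum, but as a share of FPKM outside the mitochondrially encoded transcripts they do, with 0.118%, 0.0891% and 0.0798% against 0.110%, 0.161% and 0.0955%. Mrpl18 and Mrpl50 together made up more than the other 65 genes in each wild-type-labelled library, where the sum without them was 72.4, 47.6 and 47.0 FPKM. The number of genes listed at 0 was 21, 22 and 20 in the wild-type-labelled libraries and 6, 5 and 6 in the knockout-labelled ones. Genes with at least 1 FPKM numbered 17, 13 and 13 against 23, 34 and 30. Over all 24927 rows deposited, 5437, 5038 and 5181 reached 1 FPKM in wild type replicates 1 to 3. In knockout replicates 1 to 3 the number was 6016, 6388 and 6331, so it rose over the whole table too. Knockout replicate 2 stood highest of the knockout-labelled libraries for 52 of the 63 genes. For this count and for the genes at 0 in each library, the share over all rows is not given here.

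The promoters of these genes were searched for sites of 3 factors known to act on nuclear genes of mitochondria, since the genes moved mostly one way. The motifs were GCGCA and GCGC with any base between them for NRF1, CCGGAAG for ETS factors such as GABPA, and AAGATGGC for YY1, on both strands, with overlapping matches counted separately. RefSeq promoters (GRCm38.p6, 250 bases before to 50 after the start) were listed for 61 of the 67 genes. An ETS match was in 41.0% of these genes, against 9.93% of all genes with a promoter of this length. An NRF1 match was in 14.8% against 5.19%, and a YY1 match in 18.0% against 3.19%. Any of the 3 was in 37 of 61 genes, or 60.7%, against 16.4%. Member promoters are also richer in G and C, with a median of 58.3% against 52.7%. A match was in 15 of 27 genes called higher and in 19 of 30 fitted and not called, a difference that was not tested. The promoters of 4 genes called higher are printed as examples of the 3 motifs, whose matches are in capitals. A match is a run of letters and no evidence that a factor binds there.
Mrps27, chr13:99344536-99344835, plus strand: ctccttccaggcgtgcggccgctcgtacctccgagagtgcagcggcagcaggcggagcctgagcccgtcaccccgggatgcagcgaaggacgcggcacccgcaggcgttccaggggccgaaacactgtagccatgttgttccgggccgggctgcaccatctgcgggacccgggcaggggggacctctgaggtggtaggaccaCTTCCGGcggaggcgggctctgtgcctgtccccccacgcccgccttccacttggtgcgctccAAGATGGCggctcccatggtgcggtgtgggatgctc
Mrpl45, chr11:97315466-97315765, plus strand: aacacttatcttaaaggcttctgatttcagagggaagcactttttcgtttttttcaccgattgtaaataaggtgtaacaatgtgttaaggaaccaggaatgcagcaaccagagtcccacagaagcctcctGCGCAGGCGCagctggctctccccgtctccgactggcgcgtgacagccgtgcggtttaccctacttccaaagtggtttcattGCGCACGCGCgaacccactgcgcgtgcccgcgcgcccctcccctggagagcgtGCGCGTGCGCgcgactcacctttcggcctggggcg
Mrpl9, chr3:94443086-94443385, plus strand: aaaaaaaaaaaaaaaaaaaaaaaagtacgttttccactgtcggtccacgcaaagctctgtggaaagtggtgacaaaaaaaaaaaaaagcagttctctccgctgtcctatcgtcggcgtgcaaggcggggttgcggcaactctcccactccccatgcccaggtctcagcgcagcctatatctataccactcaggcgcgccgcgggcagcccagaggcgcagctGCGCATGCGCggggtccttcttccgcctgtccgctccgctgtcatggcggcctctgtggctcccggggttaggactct
Mrpl39, chr16:84735195-84735494, minus strand: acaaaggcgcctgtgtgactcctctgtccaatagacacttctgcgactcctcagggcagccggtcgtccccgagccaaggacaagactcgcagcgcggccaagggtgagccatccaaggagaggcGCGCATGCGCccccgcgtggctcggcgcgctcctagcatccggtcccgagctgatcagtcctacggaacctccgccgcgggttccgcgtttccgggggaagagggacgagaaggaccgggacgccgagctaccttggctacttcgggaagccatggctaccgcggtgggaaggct
Mrps27 holds an ETS match 48 bases before the start and a YY1 match 14 bases after it. Mrpl45 holds 3 NRF1 matches, Mrpl9 holds 1 at 28 bases before the start and Mrpl39 holds 1 at 125 bases before it.

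Among genes with Mrps symbols, 9 of 24 fitted were higher in the knockout-labelled libraries and 0 lower, beside 15.4% and 5.09% of all rows. Median centring gave 8 higher and 8 lower, and called 9.58% of all rows higher and 56.9% lower. Without Mrps30 and Mrps36, which are not small subunit proteins despite their symbols, 8 of 22 were higher. Whether each of these 22 encodes a small subunit protein was not checked, so this is no count of that subunit. Mrps15, a homologue of a bacterial protein that binds the small subunit rRNA, measured 0.164, 0.122 and 0.173 FPKM in wild type replicates 1 to 3 and 3.32, 7.20 and 4.44 FPKM in knockout replicates 1 to 3. Every knockout-labelled library was thus far above every wild-type-labelled library, which held 6 to 10 reads of the gene against 138 to 481. The log2 difference was 2.33 (SE 0.24, adjusted p = 0.0034), and 1.37 after removal of the GC and length trend. Mrps27, a mitochondria-specific protein whose promoter is printed above, measured 1.50, 1.05 and 1.03 against 4.85, 6.64 and 4.92 FPKM. Its difference was 1.56 (SE 0.17, adjusted p = 0.0036), and 0.65 after the trend removal, still called. Mrps23, also mitochondria-specific, rose from 0.0889, 0.105 and 0.0313 to 1.05, 1.91 and 1.34 FPKM, with at most 8 reads in any wild-type-labelled library (difference 1.16, adjusted p = 0.0054, and 0.50 after the trend removal).

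Mrps2, the homologue of a bacterial protein at the neck of the small subunit, measured 4.37, 1.71 and 1.79 FPKM in the wild-type-labelled libraries and 6.76, 11.6 and 7.42 FPKM in the knockout-labelled ones. Wild type replicate 1 stood apart from the other two, and the groups did not overlap (difference 1.45, SE 0.33, adjusted p = 0.027). The call was lost after the GC and length trend removal, with a difference of 0.73, and without wild type replicate 2 or 3 or knockout replicate 2 or 3 (adjusted p up to 0.094). Mrps22, a mitochondria-specific protein whose human gene is mutated in a mitochondrial disease, showed the same layout, with 4.03, 2.15 and 1.93 against 5.30, 9.45 and 6.56 FPKM (difference 1.14, adjusted p = 0.034, lost without the same 4 libraries in turn, with p up to 0.114, and 0.65, not called, after the trend removal). Mrps17 (homologue of a bacterial rRNA-binding protein) measured 1.02 ± 0.404 against 3.01 ± 0.441 FPKM (SD, n = 3, difference 1.01, adjusted p = 0.013, or 0.053 and 0.052 without wild type replicate 2 or 3). Mrps6, another homologue of a bacterial protein, measured 0.118 ± 0.0957 against 0.889 ± 0.211 FPKM (SD, n = 3, difference 0.75, adjusted p = 0.0094, and 0.24, not called, after the trend removal). Mrps30, which despite its symbol sits in the large subunit of the assembled ribosome, measured 0.706 ± 0.184 against 2.46 ± 0.540 FPKM (SD, n = 3, difference 1.01, adjusted p = 0.0091). Its difference was 1.23 after the trend removal, the only one of the 12 largest that did not shrink, and its transcript has the lowest GC content of the 67, at 40.4%.

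The 3 Mrps18 genes encode relatives of 1 bacterial protein and differed widely in level. Mrps18c was listed at 17.9, 9.27 and 7.99 FPKM in the wild-type-labelled libraries and 15.8, 19.6 and 17.3 FPKM in the knockout-labelled ones. The groups overlapped through wild type replicate 1, and the difference of 0.62 had a 95% interval from -0.09 to 1.32 (adjusted p = 0.20), but it was called without wild type replicate 1 (difference 0.94, adjusted p = 0.02). Mrps18b was listed at 0 in each wild-type-labelled library and at 0.312, 0.690 and 0.251 FPKM in the knockout-labelled ones (adjusted p = 0.032 on 14 to 57 reads, up to 0.107 without any 1 wild-type-labelled library). Mrps18a was at 0 in 4 libraries and at 0.00685 and 0.0101 FPKM in knockout replicates 2 and 3, which is 1 read in each, too few to show a difference. In FPKM the order was Mrps18c above Mrps18b above Mrps18a in each of the 3 knockout-labelled libraries. Mrps18c has the transcript with the lowest GC content of the 3, at 44.5%, against 52.6% for Mrps18b and 55.2% for Mrps18a.

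**Figure D2:**
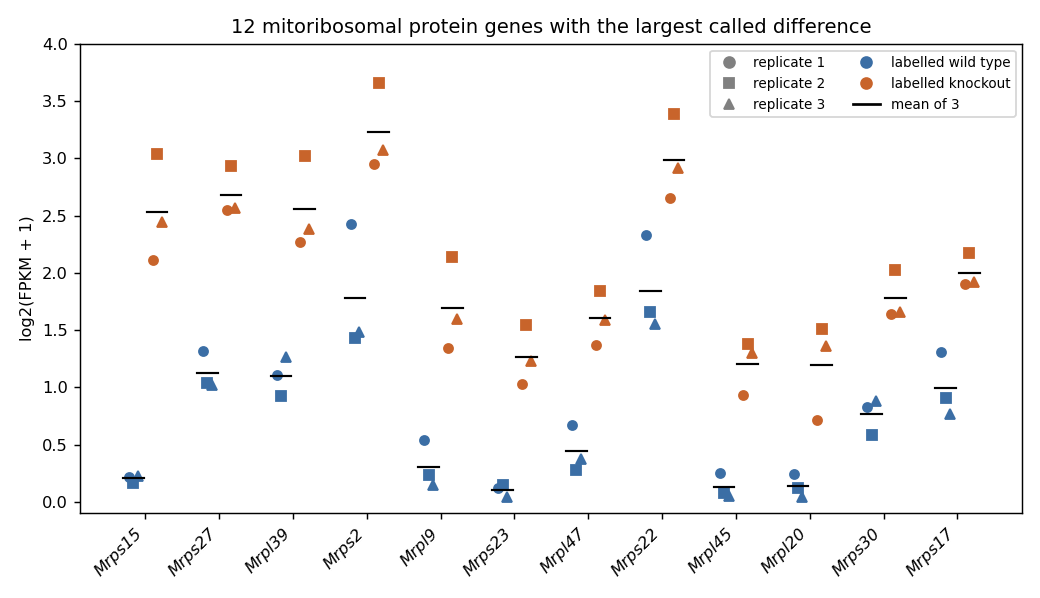
Levels as log2(FPKM + 1) in each library of the 12 genes with the largest called difference, ordered by the difference from left to right, with blue for wild-type-labelled libraries, orange for the knockout-labelled ones, symbols for the replicates and a black bar for the mean of 3. In all 12 genes the 3 orange points lie above the 3 blue points, and in each of them knockout replicate 2 is the highest.

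Among genes with Mrpl symbols, 19 of 39 fitted were higher and 0 lower, beside 15.4% and 5.09% of all rows. Median centring gave 10 and 5 (9.58% and 56.9% of all rows). Mrpl39, a mitochondria-specific protein, measured 1.16, 0.893 and 1.41 FPKM in the wild-type-labelled libraries and 3.83, 7.12 and 4.21 FPKM in the knockout-labelled ones. No library of one group reached the other, with 73 to 110 reads against 238 to 711 (difference 1.46, SE 0.23, adjusted p = 0.0090, and 0.79 after the trend removal, still called). Mrpl9, a homologue of a bacterial protein, measured 0.452, 0.175 and 0.108 against 1.54, 3.40 and 2.04 FPKM (difference 1.39, adjusted p = 0.010). The groups lay apart, and wild type replicate 1 was the highest of its group, as it was for Mrps2 and Mrps22. The difference of Mrpl9 was 0.81 after the trend removal, still called.

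Around the exit of the tunnel through which the new protein leaves, 2 of 5 genes were called higher, beside 15.4% of all rows. Mrpl45, which attaches the ribosome to the inner mitochondrial membrane, measured 0.192, 0.0555 and 0.0377 FPKM against 0.911, 1.61 and 1.46 FPKM (difference 1.08, SE 0.15, adjusted p = 0.0062). It rested on 2 to 18 reads in the wild-type-labelled libraries and 58 to 165 in the knockout-labelled ones. Mrpl47, the counterpart of a bacterial protein at the tunnel exit, measured 0.590, 0.214 and 0.299 against 1.59, 2.59 and 2.02 FPKM (difference 1.16, adjusted p = 0.0076). After the trend removal Mrpl45 and Mrpl47 were still called, with differences of 0.57 and 0.93. Mrpl24, at the same site, overlapped between groups, with 8.41, 4.20 and 4.23 against 4.70, 7.38 and 5.92 FPKM. Its difference of 0.12 had a 95% interval from -0.55 to 0.80, changed sign under several settings and was not called in any of the 18. Mrpl22 measured 0.191 ± 0.0619 against 0.755 ± 0.428 FPKM (SD, n = 3, adjusted p = 0.10), and Mrpl23 had 2 reads in each knockout-labelled library and none in the others.

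In the central protuberance, the part of the large subunit that faces the head of the small subunit, 4 of 8 genes were called higher. Of all rows 15.4% were. Mrpl40 measured 0.315, 0.257 and 0.222 against 0.880, 0.991 and 1.19 FPKM (difference 0.67, adjusted p = 0.0079), and the difference fell to 0.03 after the GC and length trend removal, in which it was not called. Its transcript has 54.4% GC. Mrpl55 and Mrpl27 were listed at 0 in each wild-type-labelled library and reached 0.238 to 0.443 and 0.076 to 0.154 FPKM in the knockout-labelled ones (adjusted p = 0.012 and 0.027), on 6 to 18 and 2 to 6 reads, and both lost the call without wild type replicate 2 or 3 (up to 0.058 and 0.104). Mrpl46 rested on 0 to 2 reads against 5 to 10 (adjusted p = 0.040, and 0.166 without wild type replicate 2), and under median centring the sign turned for Mrpl46 and Mrpl27.

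Mrpl18, which in bacteria binds 5S rRNA, was the most abundant of the mitoribosomal protein genes in the wild-type-labelled libraries. It measured 44.3, 36.8 and 30.9 FPKM there and 31.5, 41.9 and 38.0 FPKM in the knockout-labelled ones, and the groups overlapped. The difference was 0.00 with a 95% interval from -0.46 to 0.45 (adjusted p = 0.99), but it was -0.93 and called (adjusted p = 0.0072) after the GC and length trend removal. Mrpl50, a mitochondria-specific protein, was next, at 29.4, 23.9 and 24.8 against 38.3, 49.3 and 37.2 FPKM. All 3 knockout-labelled libraries lay above the others, and the difference was 0.65 (SE 0.17, adjusted p = 0.039). The call was lost after the trend removal, where the difference was 0.53 (adjusted p = 0.052), and without any library but wild type replicate 1 (up to 0.125). Mrpl1, of the rRNA stalk that guides the outgoing tRNA, measured 8.89 ± 0.879 against 11.4 ± 0.586 FPKM, and Mrpl32, whose maturation in the matrix is known to control ribosome assembly, 5.56 ± 0.577 against 8.01 ± 1.02 FPKM (SD, n = 3). Neither was called (adjusted p = 0.14 and 0.075), although the groups did not overlap.

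The stalk that recruits translation factors is built from Mrpl10, Mrpl11 and Mrpl12. Mrpl12 was listed at 0 in each of the 6 libraries, Mrpl10 had 1 read in knockout replicate 1 and none elsewhere, and Mrpl11 rested on 0 to 2 reads against 6 to 15 (adjusted p = 0.033, and 0.15 without wild type replicate 2), with its sign turned under median centring. Also listed at 0 in all 6 libraries were Mrpl2, of the peptidyl transferase region, Mrps12, of the decoding centre, and Mrpl34. Mitochondrial translation requires such proteins, and a listed 0 here says only that no reads were assigned to the row. A further 14 genes, or 20.9% of the 67 beside 19.4% of all usable rows, were listed at 0 in each wild-type-labelled library and above 0 in at least 1 labelled knockout, among them Mrpl49 with 0.348, 1.31 and 0.678 FPKM (adjusted p = 0.032, and 0.102 without wild type replicate 3) and Mrpl41 with 0.138, 0.797 and 0.421 FPKM (adjusted p = 0.069). There were 0 genes with the opposite pattern, while over all usable rows 4470 were at 0 in each wild-type-labelled library only and 1140 in each labelled knockout only.

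The remaining called genes lay between 0.29 and 1.06 on the log2 scale. Mrpl20, a homologue of a bacterial assembly protein, measured 0.183, 0.0865 and 0.0294 against 0.637, 1.85 and 1.57 FPKM (adjusted p = 0.019, and 0.076 without wild type replicate 3). Mrpl36 measured 0.0478, 0.0886 and 0.168 against 0.421, 1.81 and 1.61 FPKM (adjusted p = 0.043, and 0.118 without wild type replicate 2), so that knockout replicate 1 was well below the other two. Neither was called after the trend removal, with differences of 0.51 for Mrpl20 and 0.38 for Mrpl36. Mrpl21, Mrpl35, Mrpl17, Mrpl51, Mrpl43 and Mrpl19 completed the list, with differences of 0.60, 0.66, 0.53, 0.53, 0.29 and 0.40 and adjusted p from 0.0093 to 0.036, and of these only Mrpl21 held without wild type replicate 2. After the trend removal Mrpl21 (0.30, adjusted p = 0.070), Mrpl51 (0.061), Mrpl19 (0.078) and Mrpl43 (0.248) were not called, while Mrpl35 and Mrpl17 were. Mrps36, kept by its symbol, is now known as a subunit of a metabolic enzyme complex and was not called (adjusted p = 0.16). Mrps5 was the only gene whose knockout-labelled libraries all lay lower, with 2.14, 1.70 and 1.64 against 1.39, 1.62 and 1.54 FPKM (difference -0.16, adjusted p = 0.43), and it was called lower only under median centring and quantile normalization. Of genes with bacterial homologues 16 of 37 fitted were called higher, and of mitochondria-specific genes 12 of 26, beside 15.4% of all rows. The difference between these classes was not tested.

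**Figure D3:**
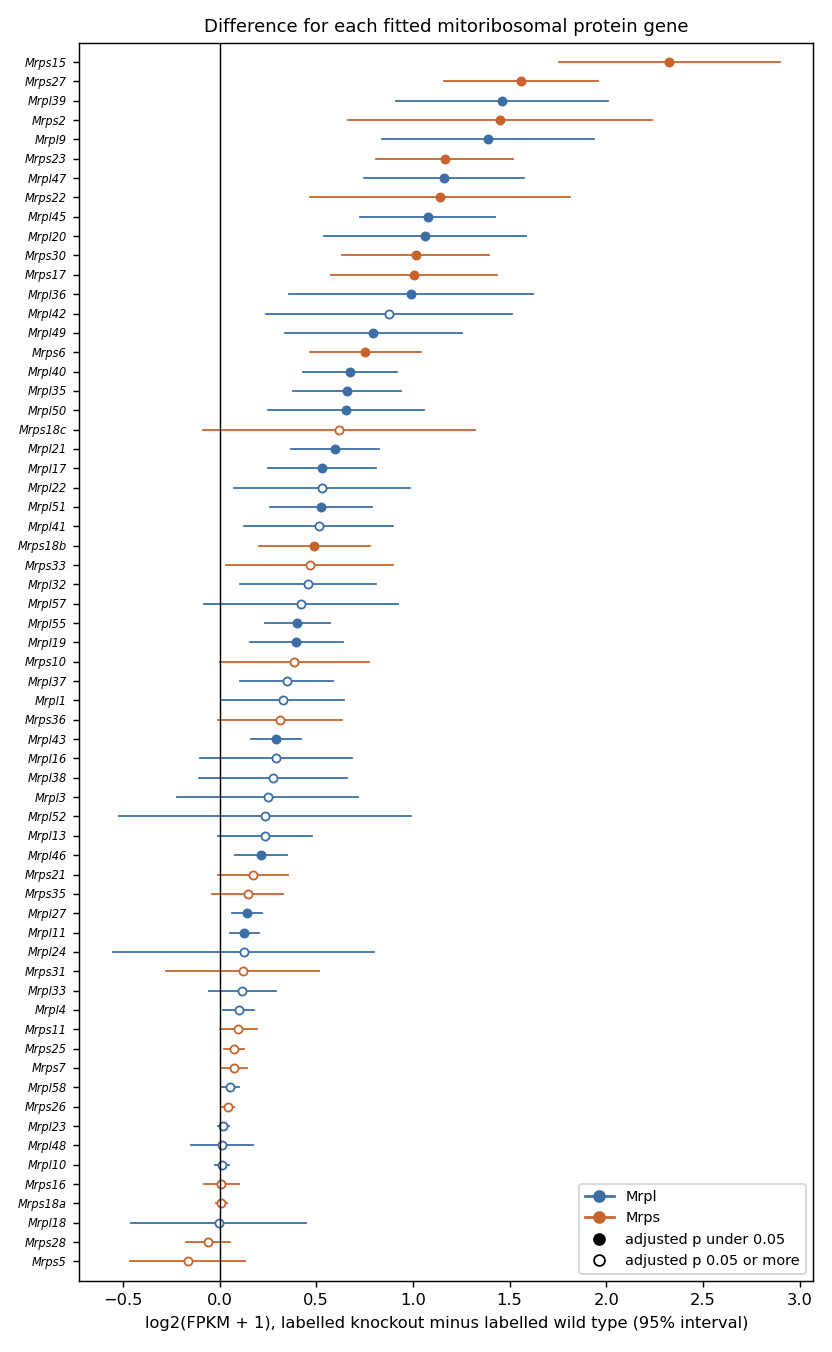
Difference in log2(FPKM + 1), labelled knockout minus labelled wild type, for each of the 63 fitted genes, with its 95% interval, blue for Mrpl and orange for Mrps, filled where the adjusted p is under 0.05. The 28 filled points run from 0.13 for Mrpl11 to 2.33 for Mrps15, and under median centring 18 genes are called above 0 and 13 below it, where 9.58% and 56.9% of all rows are.

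The level of these genes went with the base composition of their transcripts. Across the 67 genes Spearman's rho between GC content of the longest transcript and the log2 of the mean FPKM + 1 was -0.65 in the wild-type-labelled libraries and -0.55 in the knockout-labelled ones (Pearson's r -0.43 in each). The genes share the libraries, so this is a description over genes. Levels fell with GC content over all rows too. There the median of the mean FPKM was 0.287 under 45% GC and 0.0113 at 50% or more in the wild-type-labelled libraries. In the knockout-labelled ones it was 0.367 and 0.0746. Genes with a mean of at least 1 FPKM had a median of 45.3% GC, the 14 at 0 only in the wild-type-labelled libraries 52.6%, and the 4 at 0 throughout 57.0%. For the difference between groups, rho with GC content was -0.17 over 63 genes. By GC content, 6 of 16 genes under 45%, 10 of 22 from 45% to 50% and 12 of 25 at 50% or more were called higher, where 9.07%, 19.5% and 19.4% of all rows in those ranges were. Over rows with a mean of at least 1 FPKM the shares called higher were 16.8%, 35.6% and 45.9%, and the median differences -0.11, 0.34 and 0.63. The part of base composition or RNA quality in these differences was not tested beyond the trend removal given above.

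**Figure D4:**
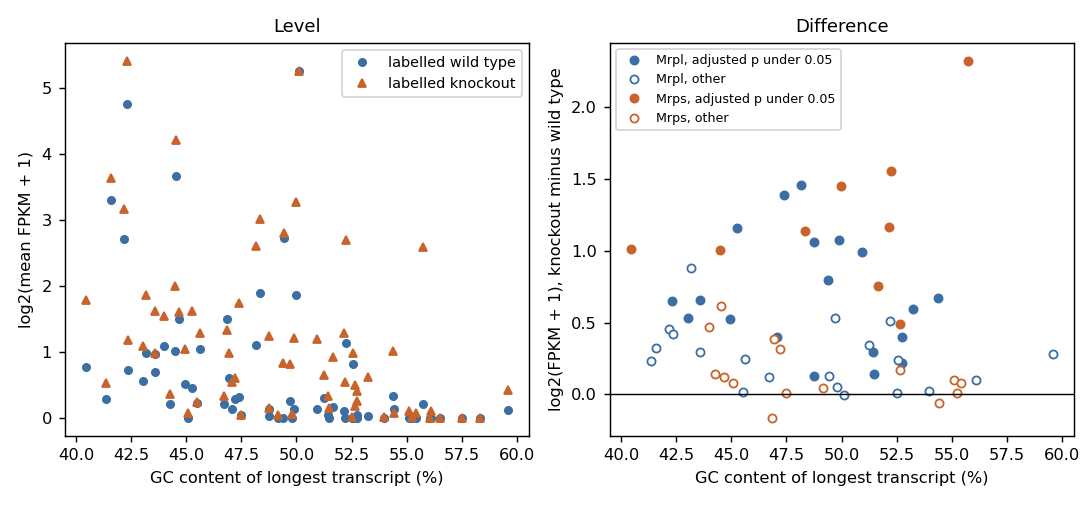
Left, log2 of the mean FPKM + 1 of each of the 67 genes against the GC content of its longest transcript, blue circles for wild-type-labelled libraries and orange triangles for the knockout-labelled ones. Right, the difference for the 63 fitted genes, filled where the adjusted p is under 0.05. Levels fall towards high GC in both groups, and called genes occur from 40.4% to 55.7% GC, with median centring turning the sign of 3 of the 28.

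Of the subunits of the mitochondrial ribosome that carry other symbols, Ptcd3 was the 1 of 4 fitted genes that was called. The other 3 had positive differences. Of all rows 15.4% were called higher and 5.09% lower. Ptcd3, an RNA-binding pentatricopeptide protein of the small subunit, measured 15.5, 18.3 and 25.7 FPKM in the wild-type-labelled libraries and 10.5, 8.78 and 10.1 FPKM in the knockout-labelled ones, all of them lower (difference -0.92, SE 0.21, adjusted p = 0.026, not called without wild type replicate 2 or 3 or knockout replicate 2 or 3, with p up to 0.074). Dap3, a GTP-binding protein of the small subunit, measured 0.108 ± 0.0577 against 0.369 ± 0.122 FPKM (SD, n = 3, adjusted p = 0.058), and Chchd1 3.47 ± 1.24 against 6.02 ± 1.81 FPKM (SD, n = 3, adjusted p = 0.18). Gadd45gip1 had values only in 2 knockout-labelled libraries, and Aurkaip1 was listed at 0 throughout. The mitochondrial rRNAs, measured in the same libraries, did not pass the test. The large subunit rRNA mt-Rnr2 was listed at 5365, 5172 and 9245 FPKM against 4481, 1919 and 3054 FPKM (adjusted p = 0.091), and the small subunit rRNA mt-Rnr1 at 4152, 5735 and 4215 against 6242, 3430 and 3701 FPKM (adjusted p = 0.78).

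Genes that assemble or serve the mitochondrial ribosome were mostly higher where they were called. Of 15 translation factors fitted 8 were higher and 0 lower (median difference 0.55), beside 15.4% and 5.09% of all rows. Median centring gave 6 and 3 (9.58% and 56.9% of all rows). The trend removal gave 3 and 0 (8.82% of all rows higher), and the fit without wild type replicate 2 gave 3 and 0 (6.38% higher). The elongation factor Gfm1 measured 1.63, 0.694 and 0.608 FPKM against 6.01, 8.39 and 6.94 FPKM (adjusted p = 0.0039), the recycling factor Mrrf 0.0794 ± 0.00951 against 0.802 ± 0.241 FPKM and the initiator tRNA formyltransferase Mtfmt 0.135 ± 0.141 against 1.03 ± 0.227 FPKM (SD, n = 3, adjusted p = 0.0089 and 0.0097). Taco1, a translational activator of a cytochrome oxidase subunit, was higher too, with 0.0401, 0.0297 and 0 against 0.324, 0.347 and 0.595 FPKM (adjusted p = 0.015, and 0.071 without wild type replicate 3), while Gfm1, Mrrf and Mtfmt kept their calls without any 1 library. Of 23 assembly and rRNA modification genes 6 were higher and 0 lower (median 0.06), but 2 higher and 14 lower after median centring, near the 56.9% of all rows called lower there, and 1 higher and 0 lower without wild type replicate 2. Among them Noa1, a GTPase of small subunit assembly, measured 0.0657 ± 0.0374 against 0.483 ± 0.130 FPKM, and the rRNA methyltransferase Nsun4 0.354 ± 0.0336 against 0.882 ± 0.152 FPKM (SD, n = 3, adjusted p = 0.015 and 0.022, up to 0.070 and 0.090 without 1 wild-type-labelled library). Mief1, best known for mitochondrial fission, had the smallest adjusted p of this list, at 0.479 ± 0.0730 against 2.27 ± 0.0974 FPKM (SD, n = 3, adjusted p = 0.0025), and the pseudouridine synthase Trub2 measured 0.0328 ± 0.0152 against 0.183 ± 0.0433 FPKM (SD, n = 3, adjusted p = 0.028, and 0.142 without wild type replicate 3). The sign of Trub2 turned under median centring.

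Of 18 genes that charge mitochondrial tRNAs 5 were higher and 0 lower (median 0.18), beside 15.4% and 5.09% of all rows. Median centring gave 4 higher and 5 lower (9.58% and 56.9% of all rows). The trend removal gave 3 and 1, where 8.82% of all rows were called higher. All 3 subunits of the glutaminyl-tRNA amidotransferase were among the 5 called higher. Gatc measured 1.16, 0.595 and 0.299 against 5.88, 8.71 and 5.66 FPKM, Gatb 0.00913 ± 0.00249 against 0.545 ± 0.156 FPKM and Qrsl1 0.142 ± 0.0946 against 0.755 ± 0.107 FPKM (SD, n = 3, adjusted p = 0.0039, 0.0078 and 0.0097). Gars, the glycyl-tRNA synthetase of cytosol and mitochondria, measured 0.225 ± 0.00899 against 1.41 ± 0.502 FPKM (SD, n = 3, adjusted p = 0.011). These 4 kept their calls without any 1 library. Of 26 genes of mitochondrial DNA transcription, RNA processing and maintenance 9 were higher and 0 lower (median 0.16). Median centring gave 7 higher and 8 lower (9.58% and 56.9% of all rows). The fit without wild type replicate 2 gave 3 and 0, where 6.38% of all rows were called higher. Tfam, which packages mitochondrial DNA, measured 6.01, 4.77 and 3.96 against 11.2, 13.0 and 12.2 FPKM (adjusted p = 0.0071). Lrpprc, which stabilises mitochondrial mRNAs, measured 1.16 ± 0.380 against 4.38 ± 0.636 FPKM, the RNA helicase Supv3l1 0.157 ± 0.0933 against 1.07 ± 0.213 FPKM and the RNase P subunit Hsd17b10 0.0570 ± 0.0227 against 2.39 ± 1.41 FPKM (SD, n = 3, adjusted p = 0.0063, 0.0069 and 0.014, the last 0.055 without wild type replicate 3).

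Among 11 regulators of mitochondrial biogenesis 4 were higher and 2 lower, beside 15.4% and 5.09% of all rows. Median centring gave 0 higher and 5 lower (9.58% and 56.9% of all rows). The fit without wild type replicate 2 gave 0 and 0, where 6.38% of all rows were called higher. Ppargc1a, a coactivator of mitochondrial gene expression, measured 8.18, 9.67 and 6.89 FPKM in the wild-type-labelled libraries and 4.16, 2.92 and 4.64 FPKM in the knockout-labelled ones (difference -0.92, adjusted p = 0.022), every one lower. Yy1 was lower as well, at 25.4, 27.7 and 32.6 against 19.9, 13.8 and 18.6 FPKM (adjusted p = 0.044). The call of Ppargc1a was lost without wild type replicate 1 or 2 (adjusted p up to 0.075). That of Yy1 held only without knockout replicate 1 and was lost without each of the other libraries in turn (adjusted p up to 0.14). Gabpb1, a partner of the ETS factor GABPA, measured 0.913 ± 0.249 against 1.85 ± 0.195 FPKM, and the nuclear receptor Esrra 0.00629, 0 and 0 against 0.0924, 0.195 and 0.170 FPKM (n = 3, adjusted p = 0.032 and 0.019). Pprc1 and Gabpb2 were also called higher, and each of the 4 higher calls was lost without wild type replicate 2, while Esrra and Pprc1 turned sign under median centring. After the trend removal Taco1, Noa1, Nsun4, Trub2, Gars, Hsd17b10, Gabpb1 and Pprc1 were not called.

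**Figure D5:**
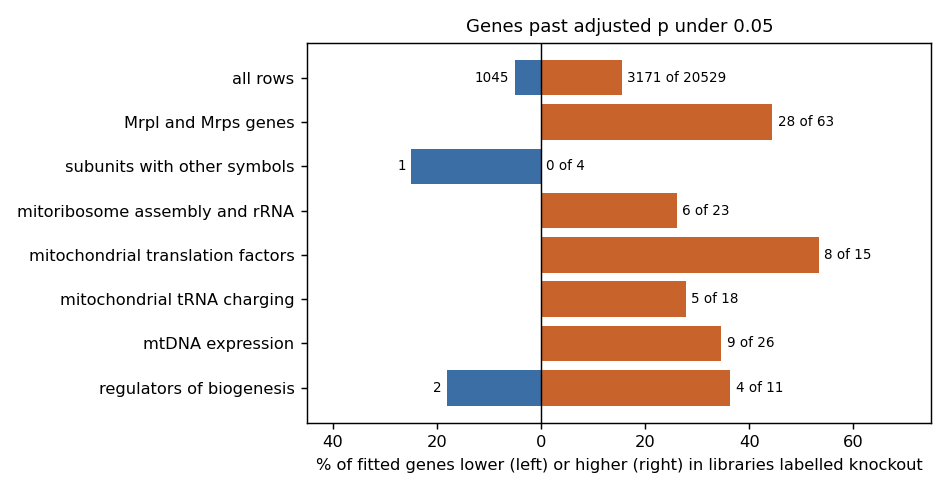
Share of fitted genes called higher (orange, right) or lower (blue, left) in the knockout-labelled libraries, with the counts printed, for all rows, the Mrpl and Mrps genes and 6 lists of related genes. The Mrpl and Mrps genes stand at 28 of 63 and the translation factors at 8 of 15, and median centring gives 18 higher and 13 lower for the former and 6 higher and 3 lower for the latter, beside 9.58% higher and 56.9% lower over all rows.

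Beside the mitoribosomal protein genes, 25 of 73 fitted cytosolic ribosomal protein genes were higher and 0 lower (median 0.21). Of 68 nuclear genes of oxidative phosphorylation 30 were higher and 1 lower (median 0.36). Over all rows 15.4% were called higher and 5.09% lower in that fit. Counts of these families under the alternative settings are not given here. The families were taken by symbol after the values were seen, and their differences from the mitoribosomal protein genes were not tested.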

How the data were processed

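RNA of whole liver was sequenced in 6 libraries, 3 per labelled group. The authors deposited 1 FPKM value per row and library; per the submitters' processing notes reads were aligned with HISAT2 to GRCm39, with its version, the read counter and the gene models not given in the sources used here. The first 1787 rows and 119 rows without a symbol were dropped, and 226 rows share a symbol. Where exon length (GENCODE M21, GRCm38) was multiplied in, 98.9% of 43458 low values were whole reads within 0.15 read, against 36.0% in the dropped block and 30% by chance, which gave the depth and the read counts quoted. Values of genes with near-identical copies are uncertain.

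The FPKM values as deposited were tested with limma 3.58.1 in R 4.3.3 on log2(FPKM + 1), with trend and robust moderation, labelled genotype as the only term, Benjamini-Hochberg adjustment over 20529 rows and a threshold of 0.05. No filter on level was used, since a gene can pass one through its higher group alone, as 5 of the 23 genes with 1 FPKM in 3 libraries did. In simulated data with the same rows, 34% of 100 rows changed by 1 and 82% of 100 changed by 2 (log2) were recovered. The changed rows were drawn only from rows above a floor on the mean log2(FPKM + 1). These shares therefore do not cover genes near 0.

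The genes named are the 12 with the largest called difference, the 6 of highest mean FPKM, the 6 called with the smallest adjusted p, genes at 0 in a whole group, the 3 Mrps18 genes and up to 4 called genes of each related list. Others were named for their place in the ribosome after their values were seen, and the roles, the pathway lists and the members were chosen with earlier results of these data known. Marker lists were hepatocyte, cholangiocyte, endothelial, Kupffer cell, stellate, lymphocyte, erythroid, adipocyte and kidney. Called counts (higher and lower) not given in the report were 0 and 0 of 4 cholangiocyte, 0 and 1 of 6 endothelial, 0 and 1 of 6 Kupffer cell, 0 and 0 of 3 lymphocyte, 1 and 0 of 4 erythroid, 0 and 0 of 2 adipocyte and 0 and 0 of 9 kidney genes. Alternatives changed the threshold, filter, pseudocount, moderation, scaling, trend removal, block and the libraries used.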

Additional observations from a re-analysis of the deposited data

How the results depend on the processing

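Median centring subtracts 1 amount from every row of a library, rows at 0 included. That amount was set by the library's median over rows with a mean of at least 1 FPKM. The number of mitoribosomal protein genes called higher, 28 in the fit reported, was 10 at an adjusted p under 0.01 (5 Mrpl and 5 Mrps). It was 14 with a filter of 1 FPKM in 3 libraries and 13 with a mean of 1 FPKM (7 Mrpl in each). Scaling outside the mitochondrially encoded rows gave 18 (5 Mrps) and median centring 18 (10 Mrpl). The GC and length trend removal gave 11 (6 Mrpl and 5 Mrps). These counts can include genes outside the 28. Quantile normalization gave 11 Mrpl higher. Lower calls among all fitted mitoribosomal protein genes were 13 after median centring (5 Mrpl and 8 Mrps), where 56.9% of all rows were called lower. They were 2 Mrps after quantile normalization and 1 Mrpl after the trend removal. Of the 28, median centring turned the sign of 3, none of which was called lower. Over all genes, higher and lower calls were 3171 and 1045 in the limma fit reported, with 1074 and 269 at 0.01, 1911 and 1759 higher under the filters, 1927 and 1647 with scaling outside mitochondrial rows, 1967 and 11676 after centring, 1807 and 2067 after quantile normalization and 1738 higher after the trend removal. The genes' median difference of 0.39 became 0.66 under both filters, 0.96 and 0.55 with pseudocounts of 0.1 and 0.5, 0.24 with scaling outside mitochondrial rows, 0.11 after centring, 0.11 after quantile normalization and 0.13 after the trend removal. Over rows with a mean of 1 FPKM the median was 0.11 as reported and -0.18, -0.17, -0.13 and 0.01 under those last 4 settings. The cause of these shifts was not tested, apart from the smaller number of genes tested under the filters.

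Leaving out each library in turn gave 11 to 34 higher and 0 lower (Mrpl 6 to 23, Mrps 5 to 11), a median of 0.32 to 0.45, and over all genes 1197 to 3947 higher and 428 to 888 lower. The replicate numbers did not pair the samples, with correlations of same-numbered deviations of -0.05, -0.10 and 0.17 over 5532 genes, and not every library correlated best with its own number. With the replicate block 14 genes were higher (8 Mrpl), all 14 among the 28, and over all genes 1642 were higher and 570 lower. Scaling by median ratios, chosen after the data were seen, kept 27 of the 28.

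Signs turned as follows. Scaling outside mitochondrial rows gave -0.019 for Mrpl1, -0.20 for Mrpl24 and -0.029 for Cdkl3. Median centring gave -0.26 for Cdkl3, -0.080 for Esrra, -0.25 for Gadd45gip1, -0.27 for Mrpl10, -0.15 for Mrpl11, -0.26 for Mrpl23, -0.16 for Mrpl24, -0.14 for Mrpl27, -0.066 for Mrpl46, -0.27 for Mrps18a, -0.21 for Pprc1 and -0.086 for Trub2. Quantile normalization gave -0.14 for Cdkl3, 0.057 for Mrpl18 and -0.13 for Mrpl24. The trend removal gave -0.0061 for Cdkl3, -0.17 for Chchd1, -0.67 for Mrpl24 and 0.35 for mt-Rnr1. Over the fits without 1 library each, Cdkl3 ran from -0.017 to 0.059, Mrpl18 from -0.13 to 0.12, Mrpl24 from -0.020 to 0.41 and mt-Rnr1 from -0.38 to 0.049. Of these sign changes, those of Cdkl3, Gadd45gip1, Mrpl10, Mrpl23, Mrps18a and Pprc1 under median centring had a limma adjusted p under 0.05, and the others did not. These genes lay near 0 FPKM in every library, where the centred value is mostly the amount subtracted. Mrpl10, for example, had 1 read in knockout replicate 1 and none elsewhere. Such calls do not show a lower level in the knockout-labelled libraries. Of the 28 genes, 25 stayed positive in each of the 18 alternatives. Depth limits the genes on few reads: 1 read on 1 kb is worth 0.0206 to 0.0489 FPKM, so a listed 0 does not separate libraries that differ by a few reads.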
